A study of Mus musculus with 28 samples.

Results

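Transforming growth factor beta (TGF-beta) genes were followed in mouse tail tendon as a set of 10: the ligands Tgfb1, Tgfb2 and Tgfb3, the receptors Tgfbr1, Tgfbr2 and Tgfbr3, the latent binding proteins Ltbp1, Ltbp2 and Ltbp3, and the inhibitory factor Smad7. They were chosen by name for their place in the pathway, with earlier results of these data known. All 10 were found among the 25719 genes counted. Each of the 28 libraries held bulk RNA from the tail tendon fascicles of 1 mouse on the C57BL/6 background. Fosl-2 Tg mice carry, at a random site of the genome, murine Fosl2 with eGFP behind it. The product is a subunit of AP-1, and a major histocompatibility class I promoter drives it, so the transgene is not limited to tendon cells. WT mice were non-transgenic controls, and no mouse of either genotype was labelled with a further allele or agent. The early phenotype group (6 to 8 weeks of age) held 7 WT and 8 Fosl-2 Tg mice, all male. The established group (older than 14 weeks) held 6 WT and 7 Fosl-2 Tg mice, 11 of them female, with 1 male in each genotype. The question put to the ligand, receptor and storage genes was whether they differed between Fosl-2 Tg and WT tendon in either phenotype, in a model studied for tendon fibrosis and in which matrix genes change.

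TGF-beta ligands are made as inactive precursors. The mature dimer stays bound to its propeptide, and this small latent complex is usually joined to a latent binding protein that anchors it in the extracellular matrix until integrins, thrombospondin or proteases release it. Free ligand binds the type II receptor, which recruits and phosphorylates the type I receptor, and SMAD proteins carry the signal to the nucleus. In tendon, the pathway is known for its part in progenitor recruitment, matrix synthesis and scarring.

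Library totals ranged from 9645598 to 66894396 counts, and every member was covered by at least 159 reads in every library. Fosl2 itself, counted without separating the transgene from the endogenous gene, was 1.15-fold higher in early Fosl-2 Tg tendon (FDR = 0.918) and 1.30-fold higher in established Fosl-2 Tg tendon (FDR = 0.142), neither past the threshold of 0.05 in edgeR's quasi-likelihood test. The labelled tissue carried its markers. All 8 listed tendon fibroblast genes were detected in each group, but their summed level was between 2912 and 53840 CPM (counts scaled to library size) in established Fosl-2 Tg mice against 79950 to 162800 CPM in established WT mice, and 4 of the 8 passed the test as lower. In bulk tissue, fewer cells of a type and less RNA per cell cannot be told apart. The 10 skeletal muscle genes varied widely inside each group, from 49.9 to 19910 CPM over all established mice, and none passed the test. Macrophage markers lay between 646 and 1120 CPM in established WT mice and between 828 and 1446 CPM in established Fosl-2 Tg mice, with 1 of 8 past the test as higher. The part of these cell populations in the differences given for the members was not tested, except where a value with a muscle covariate is printed.

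The promoter table used here, from RefSeq on GRCm38.p6, held 9 windows for 7 members, each reaching from 250 bases before to 50 bases after the annotated start. Members with no window were Tgfb3, Tgfbr3 and Smad7. Because the transgene encodes an AP-1 protein, the windows were searched for the AP-1 letters TGAGTCA and TGACTCA, which are each other's reverse complement, for the related cyclic AMP response element TGACGTCA and for the SMAD palindrome GTCTAGAC, on both strands. None of these strings contains another. Only 1 of the 7 members held AP-1 letters, and 1 held the cyclic AMP element. They are shown with 10 bases on either side, the matched letters in capitals.
Ltbp3: taagttctttTGAGTCAgacactggat
Ltbp1: atttgctgccTGACGTCAcgtctgctgc
The Ltbp3 stretch is chr19:5740884-5740910 on the plus strand and its match begins 6 bases before the start. The Ltbp1 stretch is chr17:75005446-75005473 on the plus strand and its match begins 73 bases before the start. Of all 32851 promoter windows, 5.20% held the AP-1 letters, 1.79% the cyclic AMP element and 0.213% the SMAD palindrome, which no member window held. Counted per gene, as for the members, the shares of 27025 genes were 5.95%, 2.03% and 0.248%. These matches describe letters in a window and are not evidence of binding.

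Levels were compared between genes only per length, as CPM divided by the exon length in kilobases. On this scale Tgfbr3, the betaglycan co-receptor that presents ligand and binds TGF-beta2 in particular, was the most abundant of the 10 in each of the 4 groups, at 76.8 ± 21.7 CPM per kilobase in early WT mice (SD, n = 7), 67.4 ± 16.0 in early Fosl-2 Tg mice (n = 8), 113.1 ± 29.5 in established WT mice (n = 6) and 176.8 ± 32.3 in established Fosl-2 Tg mice (n = 7). Its range did not overlap that of the next gene in any group. Smad7, which blocks receptor signalling and recruits ubiquitin ligases to the receptors, was the lowest in each group, between 4.97 ± 1.34 CPM per kilobase in early Fosl-2 Tg mice and 7.86 ± 1.16 in established WT mice. Most neighbours in between overlapped. In early WT mice Ltbp1 (40.1 ± 4.39), Tgfb3 (39.1 ± 8.69), Tgfbr2 (34.6 ± 4.01) and Ltbp3 (34.4 ± 10.9) followed Tgfbr3 without separate ranges, and then Tgfbr1 (21.3 ± 2.199), Ltbp2 (19.3 ± 10.2), Tgfb2 (12.6 ± 2.53) and Tgfb1 (9.71 ± 2.57). In established Fosl-2 Tg mice the second place was held by Ltbp2 (37.9 ± 15.5), while Ltbp1 stood sixth (18.7 ± 6.76), and Tgfb1 (10.1 ± 2.85) and Tgfb2 (8.38 ± 2.94) stood just above Smad7.

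**Figure D1:**
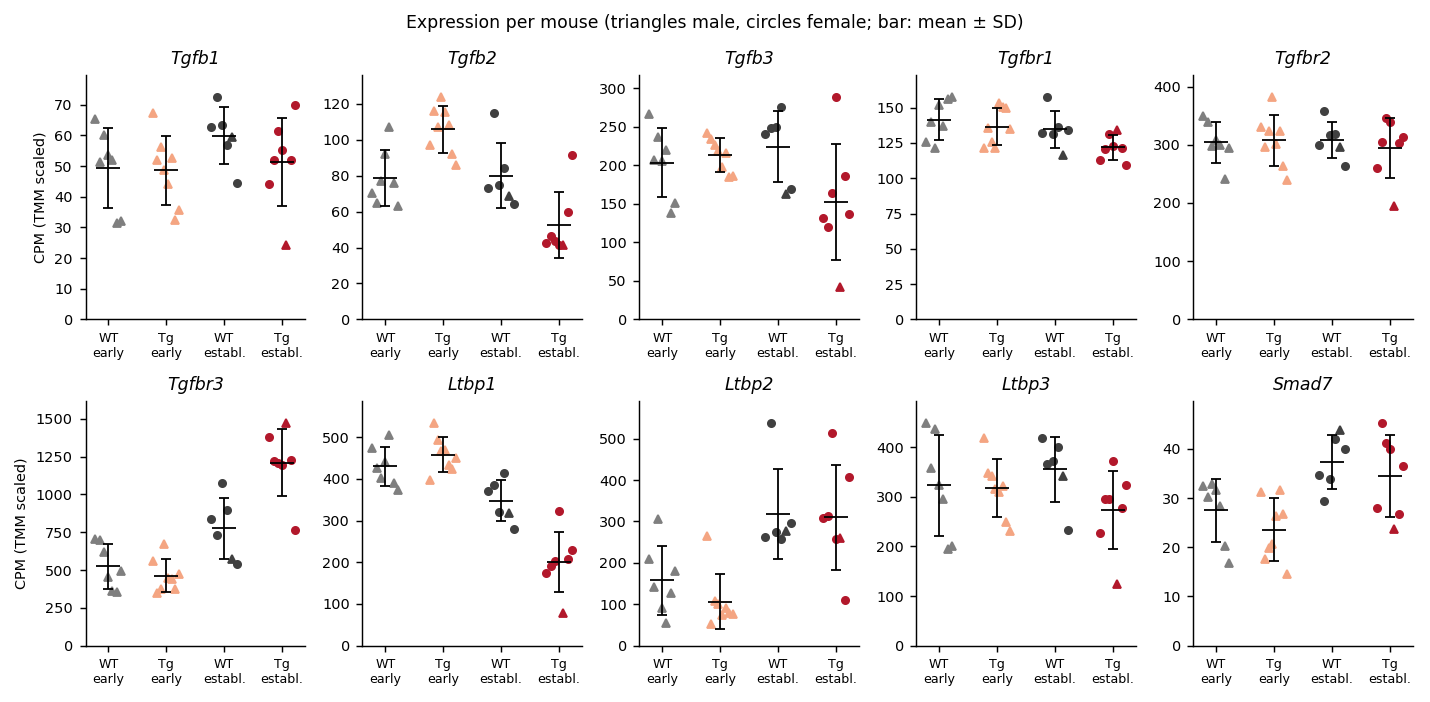
Expression of the 10 genes in CPM (TMM scaled, linear axes from 0) for each mouse in the 4 groups, with triangles for males, circles for females and a bar for the mean ± SD. Tgfbr3 lies higher in 6 of 7 established Fosl-2 Tg mice than in any established WT mouse, Tgfb2 and Ltbp1 lie lower in 6 of 7, and the genotypes overlap in every panel and phenotype.

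In early tendon no member passed the test between genotypes. The edgeR count was 0 of 10 at an FDR of 0.05, and DESeq2 and limma voom also gave 0, against 0.0396% of all 15138 genes tested. At an unadjusted p under 0.05 there was 1 member, Tgfb2, where 6.06% of all genes were. The members' median log2 fold change was -0.03, with a median of -0.01 over all genes, and 4 of the 10 had positive values.

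Tgfb2, the ligand that depends most on the co-receptor for binding, had the clearest early values. WT mice ranged from 63.0 to 107 CPM with a median of 76.2, and Fosl-2 Tg mice from 86.3 to 124 CPM with a median of 107.5. Every one of the 8 transgenic values exceeded the WT median and 4 exceeded every WT value, yet the groups overlapped. The log2 fold change was 0.43 ± 0.12 (SE, with a 95% interval of 0.18 to 0.67), and over all genes tested the FDR was 0.475 in edgeR. With the replicate number as a block in the edgeR fit it was 0.48 (FDR = 0.0695), still not past the threshold. Tgfb1, the ligand most linked to fibrosis, differed by -0.02 ± 0.18 (95% interval -0.41 to 0.36), and Tgfb3 by 0.06 ± 0.13 (-0.21 to 0.34). The largest early estimate was that of Ltbp2, at -0.58 ± 0.36 (-1.33 to 0.18, FDR = 0.847), with mice spread from 54.1 to 306 CPM in WT and from 52.7 to 265 CPM in Fosl-2 Tg.

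In established tendon 1 of the 10 members passed the test, Tgfbr3, which was higher. Over all 15862 genes tested 6.51% were called, 3.14% as higher. The other 9 members had negative log2 fold changes, where 49.3% of all genes did, and the median over the 10 was -0.18 against 0.01 over all genes. That count of 9 holds on the TMM scale. With library totals alone the median gene shifted by 0.33, and Tgfb1, Tgfbr1, Tgfbr2, Ltbp2 and Smad7 then took positive values between 0.10 and 0.31, still under that shift.

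Tgfbr3 (ENSMUSG00000029287, GRCm39 chr5:107249402-107437623, minus strand) ranged from 540 to 1072 CPM in established WT mice, with a median of 782, and from 768 to 1471 CPM in established Fosl-2 Tg mice, with a median of 1220. In all, 6 of 7 Fosl-2 Tg mice were above every WT mouse and replicate 7 fell inside the WT range, so the groups overlapped. It was 1.57-fold higher (log2 fold change 0.65 ± 0.18, 95% interval 0.26 to 1.04, FDR = 0.0487 by edgeR). The call sat near the threshold. It held in 8 of 12 alternatives, among them DESeq2 (FDR = 0.00714) and library totals (FDR = 0.00238), and was lost with an FDR of 0.0516 under RLE scaling, 0.0664 without the filter on low counts, 0.0538 in limma voom and 0.128 in females alone (log2 fold change 0.52). It was lost in 11 of the 13 fits that left out 1 library, those without WT replicate 3 or Fosl-2 Tg replicate 7 keeping it, while the fold stayed positive, from 0.56 to 0.76. With a skeletal muscle score as covariate it was 0.62 (FDR = 0.0295).

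The 2 signalling receptors had narrow intervals. Tgfbr2, the type II receptor that binds ligand, was at 309 ± 31.0 CPM in established WT mice and 294 ± 52.2 CPM in Fosl-2 Tg mice, a log2 fold change of -0.06 (95% interval -0.33 to 0.20). Tgfbr1, the type I kinase, was at 135 ± 13.1 and 122 ± 8.93 CPM, a log2 fold change of -0.14 (-0.30 to 0.03, FDR = 0.266). Neither passed the test, and both intervals leave out a change of 1 log2 unit in either direction. Of the summed receptor level per length, Tgfbr3 made up 57.0 ± 6.32% in early WT, 54.3 ± 5.05% in early Fosl-2 Tg, 66.4 ± 5.23% in established WT and 76.8 ± 4.88% in established Fosl-2 Tg mice. Such a share within a library does not depend on library scaling, although the sum does.

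**Figure D2:**
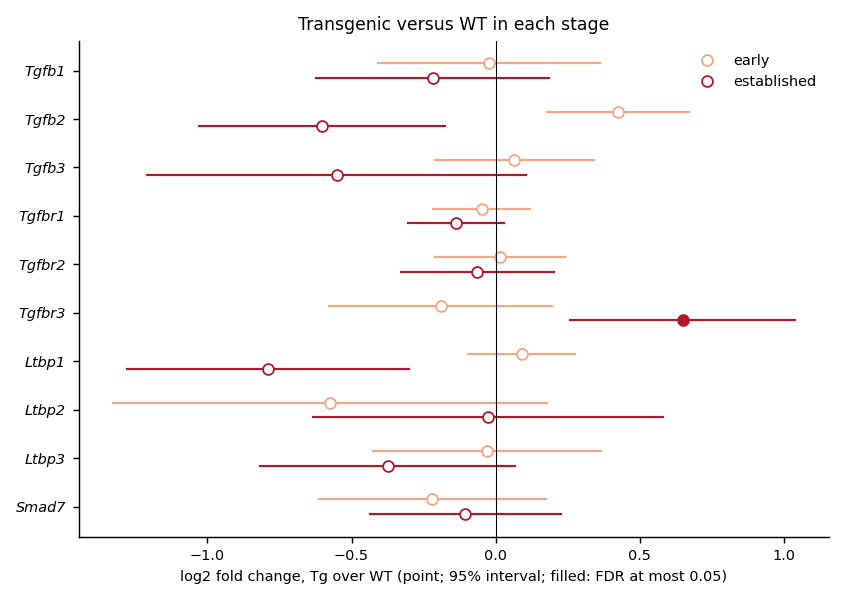
Log2 fold change of Fosl-2 Tg over WT for each gene, in early mice (orange) and established mice (red), with 95% intervals. Filled points have an FDR of at most 0.05. Tgfbr3 in established mice is the only filled point, and the early and established points of Tgfb2 lie on opposite sides of 0, at 0.43 and -0.60.

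Among the ligands of established tendon, Tgfb2 (GRCm39 chr1:186354985-186438294, minus strand) ranged from 64.5 to 115 CPM in WT mice with a median of 74.0, and from 41.4 to 91.5 CPM in Fosl-2 Tg mice with a median of 43.7. In all, 6 of 7 Fosl-2 Tg mice were below every WT mouse, and replicate 7 was the exception here too. The log2 fold change was -0.60 ± 0.20 (95% interval -1.03 to -0.18), which missed the threshold after adjustment (FDR = 0.0807). Females alone gave -0.60 (FDR = 0.142). Without Fosl-2 Tg replicate 7 it was -0.80 and passed (FDR = 0.0125), the only 1 of 13 fits without 1 library to do so. It passed in 4 of 12 other alternatives, among them DESeq2 (FDR = 0.0349) and limma voom (FDR = 0.0228). Library totals, which shifted the median gene by 0.33, gave -0.28 (FDR = 0.243). Tgfb3 was the most abundant ligand, between 58.6 ± 11.3% and 63.4 ± 3.20% of the summed ligand level per length in the 4 groups. It spread from 41.6 to 289 CPM in established Fosl-2 Tg mice, a wider range than the 163 to 276 CPM of WT mice, with a log2 fold change of -0.55 ± 0.31 (FDR = 0.263). That became -0.80 (FDR = 0.0415) with the muscle covariate. Tgfb1 gave -0.22 ± 0.19 (95% interval -0.62 to 0.19).

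Ltbp1 had the most negative estimate of the latent binders, which store ligand in the matrix. Ltbp1 (GRCm39 chr17:75312519-75699507, plus strand) ranged from 280 to 413 CPM in established WT mice with a median of 346, and from 77.9 to 322 CPM in Fosl-2 Tg mice with a median of 204. All 7 Fosl-2 Tg mice were below the WT median and 6 were below every WT mouse, replicate 4 being inside the WT range. The log2 fold change was -0.79 ± 0.23 (95% interval -1.28 to -0.30, FDR = 0.0544), just outside the threshold in edgeR. It passed in females alone, at -0.67 (FDR = 0.0413). Of the 13 fits that left out 1 library, 2 passed, without Fosl-2 Tg replicate 4 (-0.94, FDR = 0.0240) and without replicate 5 (-0.65, FDR = 0.0262). The other 11 did not pass, with an FDR of up to 0.104. DESeq2 gave an FDR of 0.0101, and over 12 alternatives other than single libraries left out the FDR lay between 0.00509 and 0.0659. Ltbp3 gave -0.37 ± 0.21 (95% interval -0.82 to 0.07) and Ltbp2, whose product lies on elastic fibres and is not known to hold latent ligand as the others do, gave -0.03 ± 0.28 (-0.63 to 0.58). The binders thus differed in estimate, but these differences between genes were not tested. Smad7, itself a SMAD target that feeds back on the receptors, was at 37.3 ± 5.49 CPM in WT and 34.5 ± 8.30 CPM in Fosl-2 Tg mice, a log2 fold change of -0.11 (-0.44 to 0.23).

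One established library carried many of the extremes. Fosl-2 Tg replicate 5, a male, was the lowest of its group for 7 of the 10 members (Tgfb1, Tgfb2, Tgfb3, Tgfbr2, Ltbp1, Ltbp3 and Smad7) and the highest for 2, Tgfbr1 and Tgfbr3. It also had the lowest summed tendon fibroblast markers, at 2912 CPM, and the highest skeletal muscle sum of its group, at 6813 CPM. Without it, the log2 fold change of Tgfbr3 was 0.59 (FDR = 0.0709), that of Tgfb2 -0.55 (FDR = 0.119) and that of Tgfb3 -0.39 (FDR = 0.258). The estimates for Tgfbr2 and Ltbp2 then turned positive, at 0.01 each.

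The change of the genotype difference between phenotypes was tested as an interaction in 1 fit of the 4 groups, which shares its libraries with the comparisons above. Of the 10 members 2 passed, Tgfb2 and Ltbp1, both with a more negative difference in established mice, where 7.43% of 16082 genes passed, 4.00% in that direction. For Tgfb2 the difference of the log2 fold changes was -1.04 ± 0.23 (95% interval -1.51 to -0.57, FDR = 0.0104 by edgeR). Early Fosl-2 Tg mice had a mean of 106 CPM against 78.7 CPM in WT, and established Fosl-2 Tg mice 52.4 CPM against 80.1 CPM. For Ltbp1 it was -0.89 ± 0.24 (-1.38 to -0.40, FDR = 0.0262), from means of 458 against 430 CPM early to 201 against 348 CPM established. Both passed in each of the 28 fits without 1 library. With library totals in place of TMM, where the median gene shifted by 0.53, Tgfb2 stayed past the threshold (-0.54, FDR = 0.0318) and Ltbp1 did not (-0.41, FDR = 0.106). Tgfbr3 stood at 0.83 ± 0.26 with an FDR of 0.0503, and 7 of the 28 fits without 1 library put it past the threshold. So did 5 of 10 other alternatives, which were the replicate block (0.90, FDR = 0.0363), DESeq2 (FDR = 0.0256), limma voom (FDR = 0.0306), a filter at a mean of 1 CPM (FDR = 0.0487) and library totals (FDR = 0.00175). In this fit the block joined early and established mice that share only a replicate number. All early mice were male and nearly all established mice female, so age, phenotype and sex cannot be told apart in this comparison.

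Along the phenotypes, established and early mice of the same genotype were compared in the same fit. In WT tendon 0 of 10 members passed in edgeR, against 5.81% of all genes, while 3 had an unadjusted p under 0.05, beside 22.4% of all genes (Tgfbr3, Ltbp2 and Smad7, all with positive values), and DESeq2 and limma voom each called 2, Tgfbr3 and Ltbp2. In Fosl-2 Tg tendon 5 of 10 passed, against a background of 47.8%, which is close to the members' share. Of these, 3 were higher and 2 lower, where 25.8% and 22% of all genes were. Tgfbr3 was 2.62-fold higher in established than in early Fosl-2 Tg mice (log2 fold change 1.39 ± 0.18, FDR = 1.20e-06), with early mice between 346 and 674 CPM and no overlap with the 768 to 1471 CPM of established mice. Ltbp2 was 2.93-fold higher (1.55 ± 0.34, FDR = 0.000478) and Smad7 1.46-fold higher (0.55 ± 0.17, FDR = 0.0103). Ltbp1 fell by 1.19 on the log2 scale (SE 0.17, FDR = 3.10e-06), from 397 to 534 CPM early to 77.9 to 322 CPM, again without overlap. Such separation was seen in 6.08% of all genes as higher and in 8.03% as lower. Tgfb2 fell by 1.01 (SE 0.16, FDR = 1.29e-05), with the highest established mouse (91.5 CPM) just above the lowest early mouse (86.3 CPM). In WT tendon the matching estimates were 0.56 ± 0.19 for Tgfbr3, 1.01 ± 0.36 for Ltbp2, 0.44 ± 0.18 for Smad7, -0.31 ± 0.18 for Ltbp1 and 0.03 ± 0.17 for Tgfb2.

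**Figure D3:**
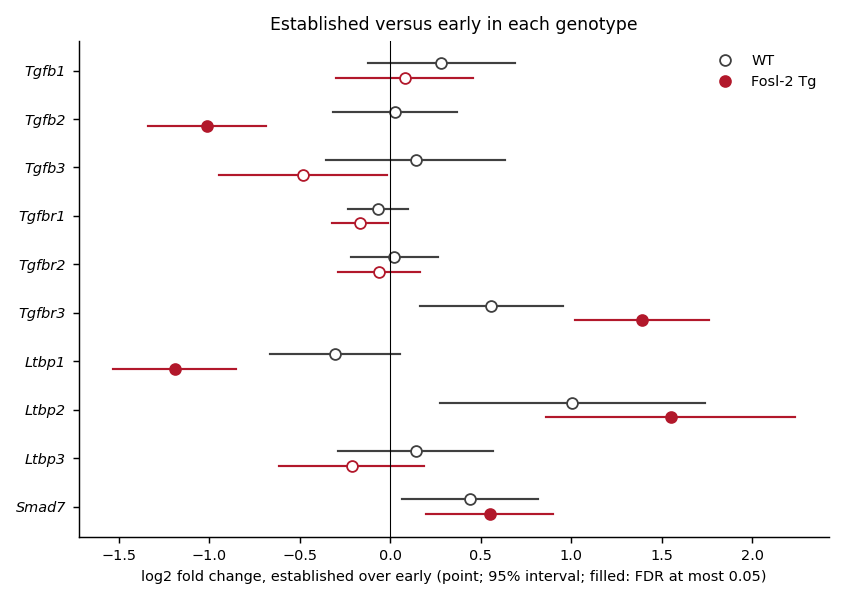
Log2 fold change of established over early mice for each gene, in WT (grey) and Fosl-2 Tg (red) tendon, with 95% intervals. Filled points have an FDR of at most 0.05. The 5 filled points are all Fosl-2 Tg, with Tgfbr3, Ltbp2 and Smad7 to the right of 0 and Tgfb2 and Ltbp1 to the left, and age and sex change together along this comparison.

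Among Ltbp1, Ltbp2 and Ltbp3, the shares of their summed level moved across the groups. Ltbp4, a latent binder outside the set, is not in this sum. It was at 108.2 ± 37.85 CPM per kilobase in early WT mice and 82.25 ± 26.71 in early Fosl-2 Tg mice. In established mice it was at 179.8 ± 37.03 in WT and 146.2 ± 46.25 in Fosl-2 Tg. The sum without it had means of 93.8, 89.5, 109.1 and 85.7 in the same order. Ltbp1 made up 43.9 ± 8.08% of the summed binder level per length in early WT mice, 48.5 ± 7.05% in early Fosl-2 Tg, 29.9 ± 2.81% in established WT and 21.8 ± 6.34% in established Fosl-2 Tg mice. Ltbp2 made up 20.1 ± 8.11%, 13.95 ± 6.27%, 35.3 ± 7.41% and 44.0 ± 13.6% in the same order. Ltbp3 stayed between 34.2 ± 7.50% and 37.6 ± 2.59%. These are descriptions of ratios within libraries and were not tested.

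**Figure D4:**
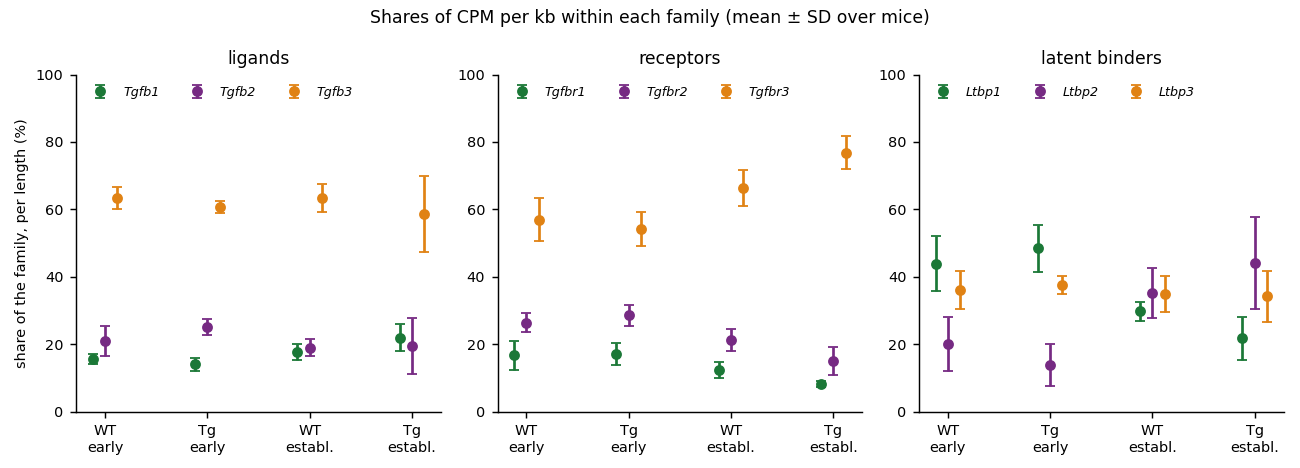
Share of each gene in the summed CPM per kilobase of its family's members (in %), in the 4 groups, as mean ± SD over mice. The families are ligands, receptors and latent binders, the last without Ltbp4. Tgfb3 holds about the same ligand share throughout, Tgfbr3 reaches 76.8% of the receptor sum in established Fosl-2 Tg mice, and Ltbp1 and Ltbp2 exchange order by their means between early and established mice.

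Over 28 libraries, after centring within groups, the genes most like Tgfbr3 among 14522 were Gm43422 (Spearman's rho = 0.964), Pitpnb (0.868) and Ston1 (0.860). Gm43422 lies on the same strand and shares 297 exon bases with Tgfbr3, so their counts are not independent and reads may be split between them. Tgfb3 shares exon bases with Ttll5 (179) and Gm37804 (163), both on the opposite strand, and reads in these stretches could not be assigned to 1 gene without strand information. These overlaps each cover between 3.13% and 4.34% of the member's exon length. All points of these correlations share library scaling.

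The rest of the pathway was read from a list of 57 genes in 6 roles, chosen with earlier results of these data known. In early tendon 0 of 55 tested passed in edgeR (3 at an unadjusted p under 0.05), and DESeq2 and limma voom also gave 0. In established tendon 7 of 56 passed, 2 higher and 5 lower, where 6.51% of all genes passed, 3.14% as higher and 3.37% as lower. The median log2 fold change was -0.14 over the list and 0.01 over all genes. This balance depended on TMM scaling, since library totals alone, which shift the median gene by 0.33, called 16 as higher and 3 as lower, without Bambi and Acta2. Thbs1, the thrombospondin that can release active TGF-beta from the latent complex, was 2.15-fold higher (log2 fold change 1.11 ± 0.20, FDR = 0.0128), at 746 to 1370 CPM in WT and 1248 to 3066 CPM in Fosl-2 Tg mice, of which 6 of 7 were above every WT mouse. Tgif1, a nuclear co-repressor of SMAD complexes, was 1.54-fold higher (0.62 ± 0.17, FDR = 0.0433). Bambi, a pseudoreceptor that dampens signalling, was lower (-0.57 ± 0.12, FDR = 0.0212). It had no overlap between genotypes, as did 2.33% of all genes in this direction.

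Target genes were the other role with calls, 4 of 16, all lower, a direction in which 3.37% of all genes were called. Col1a1, the main chain of type I collagen, had a log2 fold change of -2.50 ± 0.63 (FDR = 0.0356), Scx, a tendon transcription factor, -1.27 ± 0.34 (FDR = 0.0444), Eln, the elastin gene, -0.85 ± 0.20 (FDR = 0.0268) and Acta2, the smooth muscle actin of myofibroblasts and vessel walls, -0.72 ± 0.19 (FDR = 0.0444). Col1a1, Eln and Scx did not overlap between genotypes, a pattern seen in 2.33% of all genes in this direction. Col1a1 and Scx are also among the tendon fibroblast markers whose sum was lower in these mice. The immediate target Ccn2 had a wide interval, at 0.19 (95% interval -0.43 to 0.82), and did not pass. Ltbp4 gave -0.29 ± 0.21, Smad2 -0.13 ± 0.06 (FDR = 0.172) and Smad3 0.02 ± 0.14. The 5 ligand-binding matrix proteins all had negative estimates, with a median of -0.56, and none passed. Leaving out 1 library moved the count of 7 to between 2 and 7.

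**Figure D5:**
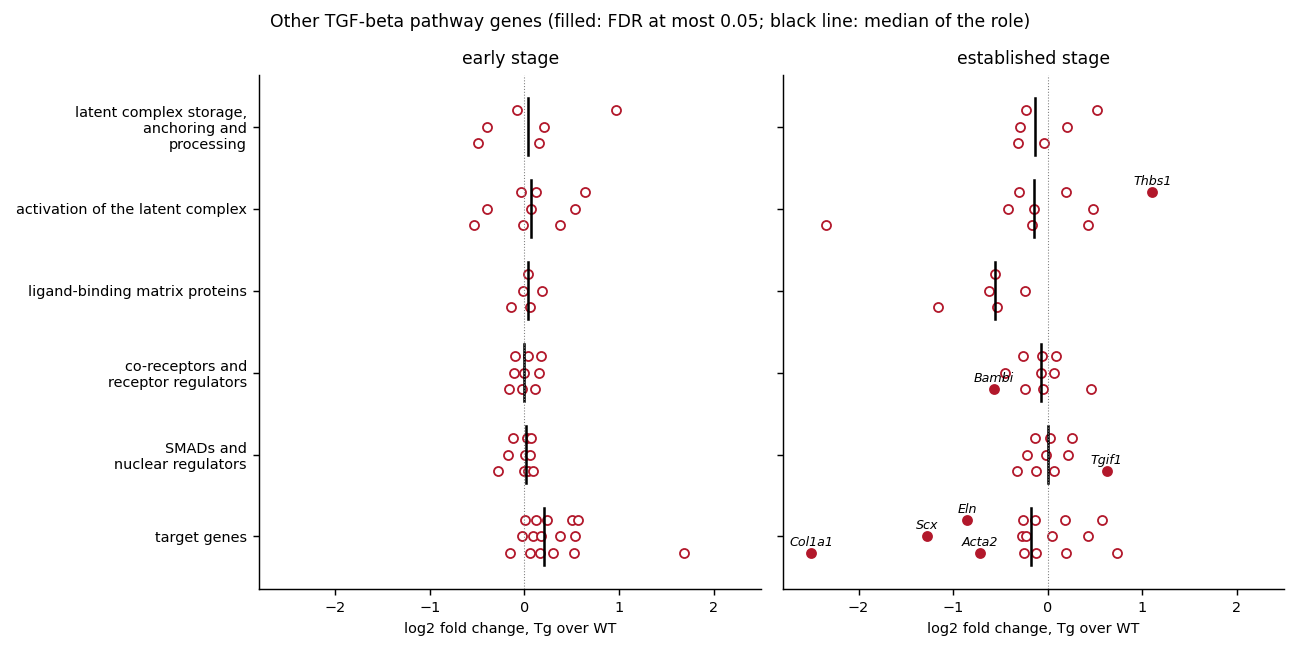
Log2 fold change of Fosl-2 Tg over WT for the other pathway genes by role, in early (left) and established mice (right). Each point is 1 gene, filled where the FDR is at most 0.05, and black lines are medians of a role. No point is filled in early mice, and the 7 named points in established mice are Thbs1 and Tgif1 to the right of 0 and Bambi, Acta2, Eln, Scx and Col1a1 to the left.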

How the data were processed

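Bulk RNA-sequencing counts of 28 tail tendon libraries, 1 per mouse, were used. Per the labels and methods, RNA was depleted of ribosomal RNA, and the authors mapped reads with STAR to GRCm39 (GENCODE M26) and counted them per gene with featureCounts. The deposited counts are raw. Strand and multimapping settings are not given in the sources used here. Genes were named with GENCODE M39 (25505 of 25719; 214 without a name).

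Counts were filtered with filterByExpr (minimum count 10, total 15), scaled by TMM and tested with edgeR 4.0.16 (quasi-likelihood, no covariates, Benjamini-Hochberg FDR over all genes) in R 4.3.3, within each phenotype for genotype, and in 1 fit of 4 groups for the interaction and for established against early mice. Values per mouse are CPM with TMM over all libraries, log2 CPM used a prior count of 2, and ± is the SD for levels and the SE for log2 fold changes. Alternatives used DESeq2 1.42.0 (the authors' tool), limma 3.58.1 and other settings. All 10 members are described, of the pathway list up to 4 genes per role past the threshold, and Ltbp4, Smad2, Smad3, Ccn2 and Col1a1 regardless. Some values for other listed or overlapping genes are not reported here. For the member called in established mice, the 3 genes most like it are given (mean of at least 1 CPM). Members and lists were chosen with earlier results of these data known.

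On simulated counts with 200 changed genes, the fit recovered 98.0% early (14997 genes tested), 96.4% established (15697) and 89.0% for the interaction (15819), and 4.88%, 7.32% and 8.72% of calls were unchanged genes. These rates are not split by the size of the change. Recovery at log2 fold changes as small as those of the members was not tested. No pair of libraries agreed within sampling noise. Replicate numbers of early WT and Fosl-2 Tg mice deviated together (correlations of 0.145 to 0.405 in all 7 pairs), although the best match was the own number in 0 of 7. In established mice the correlations ranged from -0.223 to 0.690. Replicate numbers entered only the replicate block alternative, not the main fits. Figures were drawn with matplotlib 3.10.9.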

Additional observations from a re-analysis of the deposited data

Results flagged for a closer look

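Of 40 groups of values tested for a mouse far from the rest, 5 had one, where chance gives about 1 in 20. They were Tgfb1 in established Fosl-2 Tg replicate 5 (24.1 CPM, the lowest), Tgfbr3 in established Fosl-2 Tg replicate 7 (767.5 CPM, the lowest), Ltbp2 in early Fosl-2 Tg replicate 1 (265.2 CPM, the highest), Ltbp2 in established WT replicate 2 (537.4 CPM, the highest) and Ltbp3 in established WT replicate 6 (233.9 CPM, the lowest). The difference between genotypes changed from early to established mice, by the interaction test, for Tgfb2 (-1.04 on the log2 scale, FDR = 0.0104) and Ltbp1 (-0.89, FDR = 0.0262).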

How the results depend on the processing

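Of 1120 values of members without 1 library, 1058 kept direction and side of the threshold, as did 450 of 520 under other alternatives. The early count stayed 0 throughout. The count of 1 established member became 3 in DESeq2, with the replicate block, with the muscle covariate and with all 4 groups in 1 fit, 2 in limma voom and with sex as covariate, and 0 with RLE scaling and without the filter on low counts. Without 1 library it was 0 to 2. The 7 established pathway genes became 4 without the filter, with the replicate block and in females only, 19 (16 higher, 3 lower) with library totals alone, and 2 to 7 without 1 library. For WT stage the 0 became 2 in DESeq2 and limma voom, 1 with the block and with the muscle covariate, 3 with library totals, and 0 to 1 without 1 library. With library totals the interaction count was 4 and the Fosl-2 Tg stage count 8, otherwise 2 to 3 and 5 to 6. Library totals, chosen after seeing the data, shift the median gene by -0.19 early, 0.33 established, 0.53 in the interaction, 0.23 in WT stage and 0.76 in Fosl-2 Tg stage. Established replicate numbers are shared only as numbers (own number best in 2 of 6).

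Signs reversed with library totals early for Tgfb3 (-0.10), Tgfbr2 (-0.16) and Ltbp1 (-0.081), established for Tgfb1 (0.10), Tgfbr1 (0.19), Tgfbr2 (0.25), Ltbp2 (0.31) and Smad7 (0.21), in the interaction for Tgfb1 (0.28), Tgfbr1 (0.41), Tgfbr2 (0.41) and Ltbp3 (0.14), for Tgfbr1 in WT stage (0.15), and in Fosl-2 Tg stage for Tgfb3 (0.21), Tgfbr1 (0.56), Tgfbr2 (0.66) and Ltbp3 (0.50). In limma voom they reversed early for Tgfb3 (-0.020), Tgfbr1 (0.00019) and Tgfbr2 (-0.052), established for Smad7 (0.0089), and for Tgfbr2 in the interaction (0.022), WT stage (-0.020) and Fosl-2 Tg stage (0.0021). Early, Tgfb1 and Ltbp3 turned to 0.051 and 0.081 with the replicate block and 0.054 and 0.091 with the muscle covariate, which put Tgfb1 in Fosl-2 Tg stage at -0.039. Females only gave 0.0039 for Tgfbr2 and 0.018 for Smad7. Without 1 library, values crossed 0 early for Tgfb1 (-0.11 to 0.067), Tgfb3 (-0.012 to 0.15), Tgfbr2 (-0.036 to 0.065) and Ltbp3 (-0.12 to 0.080), established for Tgfbr2 (-0.11 to 0.015) and Ltbp2 (-0.19 to 0.18), in WT stage for Tgfb2 (-0.11 to 0.094) and Tgfbr2 (-0.028 to 0.063), and in Fosl-2 Tg stage for Tgfb1 (-0.026 to 0.18). The cause was not tested. Each member had at least 159 reads in every library.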

Other observations

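Along the phenotypes, 29 of 56 tested pathway genes passed in Fosl-2 Tg tendon, 12 higher and 17 lower in established mice, beside 47.8% of all genes. Of the 5 ligand-binding matrix proteins tested 4 passed, all lower. Of the 16 target genes tested 7 passed, 6 lower and 1 higher. Over all genes, 22% were called lower and 25.8% higher. In WT tendon 5 passed, 1 higher (Itgb8) and 4 lower (Itgb1, Bambi, Cd109 and Lox), beside 5.81% of all genes. Bambi was lower in both genotypes (-0.79 in WT, -1.48 in Fosl-2 Tg), and Thbs1 was 4.07-fold higher in established Fosl-2 Tg mice, where the WT estimate was 1.45-fold (FDR = 0.276). In the interaction test 4 of 56 tested pathway genes passed, beside 7.43% of all genes. They were Thbs1 (1.49, FDR = 0.0245), Col1a1 (-3.04, FDR = 0.0130), Eln (-0.95, FDR = 0.0329) and Scx (-1.41, FDR = 0.0457). Itgb8, Itgb1, Cd109 and Lox were named after their values were seen.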
